A study of Mus musculus with 12 samples.

Results

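Retinal RNA of 12-month-old mice labelled Glia-ABCA1KO (KO below) was compared with retinal RNA of 12-month-old mice labelled Control, with 3 libraries in each group. All genes that passed a filter on low counts were members of the comparison, which made 16475 of the 27179 gene IDs in each count table. The series also holds 3 control and 3 KO libraries of 3 months, and all 12 libraries shared 1 estimate of the spread between replicates. The labels give the genotype as a loss of ABCA1 in glia, while the protocol text speaks of Astro-KO retinae. The labels do not name the Cre driver, the floxed allele, the sex or the strain, or say whether each library came from 1 animal, so a p-value measures the spread between these libraries, which may be technical. KO is used here as the label, since the count of the targeted gene does not check it.

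ABCA1 moves cholesterol and phospholipids from the cell membrane to lipid-poor apolipoproteins such as APOE. In the retina, Müller glia and astrocytes make much of the lipoprotein that neurons take up, and Müller glia also take up glucose, release lactate and react to injury by changing their gene expression. Photoreceptors depend on glycolysis even when oxygen is present, and the retina as a whole releases much lactate.

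The 6 libraries held 29079328 to 30438026 counts each. Rod photoreceptor markers made up 75000 to 79700 counts per 1000000 counts (CPM) in sum in each, so the defining markers of retina were present. Between 18887 and 19144 genes had at least 1 count in a KO library, against 18663 to 18725 in a control library. A pair of libraries stood apart from their groups. In KO library 1, 494 of 11752 genes with a mean of at least 5 CPM lay more than 1.25-fold below all 5 other 12-month libraries and 139 lay as far above them, against 12 to 88 and 8 to 26 genes in the other 5 libraries. The second library was 3-month control 2, which enters the 12-month comparison only through the shared spread. A voom fit with quality weights gave these libraries weights of 0.295 and 0.196, against 0.833 to 1.84 for the other 10.

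With all libraries, 35 of 16475 genes (0.212%) passed an adjusted p of 0.05 in edgeR's quasi-likelihood test with Benjamini-Hochberg adjustment. Such genes are called below, and rose or fell is written only of them. In KO retina 21 genes were higher (0.127%) and 14 were lower (0.085%), and 2 of the 35 had no gene name. At an unadjusted p below 0.05 there were 1433 genes. The median log2 fold change over all tested genes was -0.002.

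**Figure D1:**
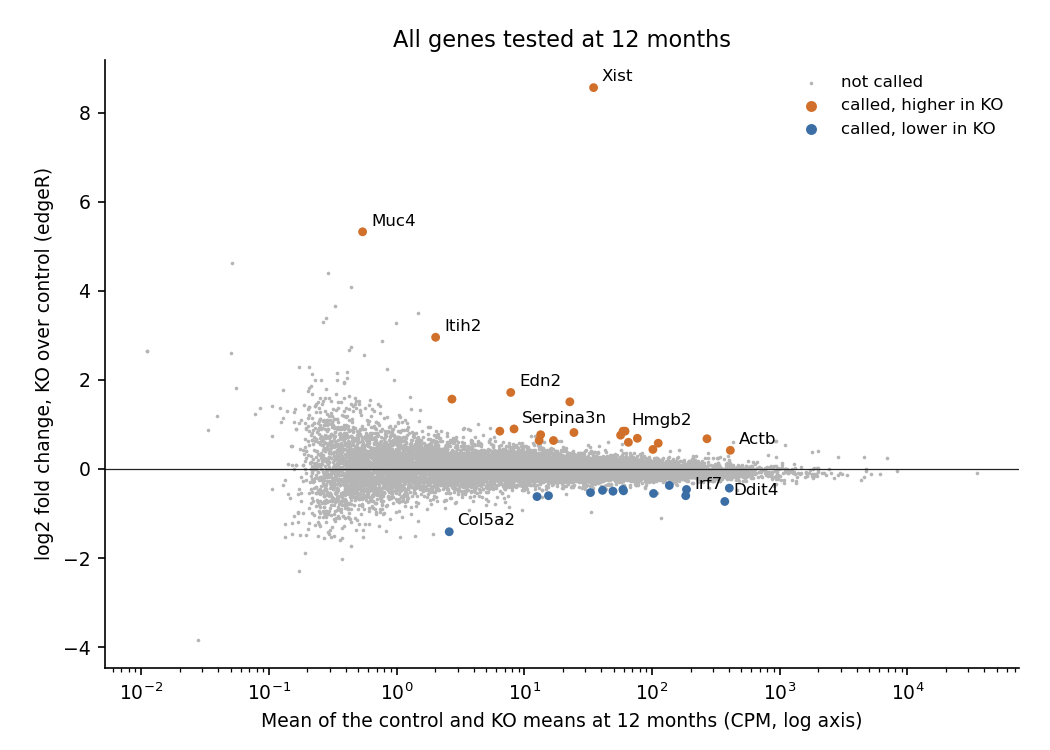
Each point is 1 of the 16475 genes tested, with the mean CPM over both 12-month groups on a log axis and edgeR's log2 fold change of KO over control. The 21 genes called higher and the 14 called lower are coloured, and 10 of them are named in the plot. Xist, Muc4 and Itih2 lie farthest above 0, and Col5a2 lies farthest below it among the called genes.

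Without KO library 1, 44 of 16706 genes (0.263%) were called, 20 higher (0.12%) and 24 lower (0.144%). Of these, 26 were among the 35, while 9 of the 35 were lost and 18 were gained. Without 3-month control 2, 166 of 16707 genes (0.994%) were called, 81 higher (0.485%) and 85 lower (0.509%), and all 35 were among them. Without both libraries, 421 of 16629 genes (2.53%) were called, 177 higher (1.06%) and 244 lower (1.47%), and 34 of the 35 were among them. Of the 420 of these genes that were also tested with all libraries, 418 had the same direction there. Leaving out 3-month libraries was an alternative added after the data had been seen. With all libraries, DESeq2 called 127 genes (0.771%), 55 higher (0.334%) and 72 lower (0.437%), and voom with quality weights called 186 (1.13%), 74 higher (0.449%) and 112 lower (0.68%). Other libraries left out one at a time also moved the count, to 13 without 12-month control 2, 15 without KO library 3, 23 without control library 1 and 52 without control library 3.

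**Figure D2:**
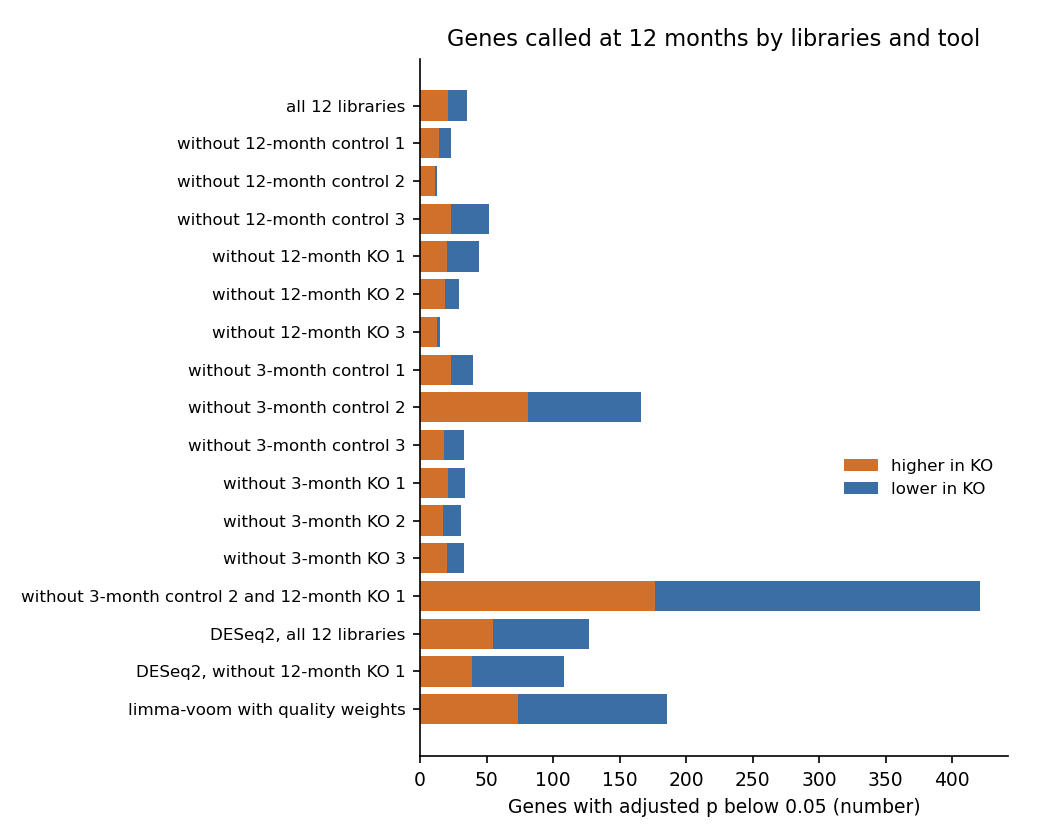
Bars give the number of genes with an adjusted p below 0.05 at 12 months, split into higher and lower in KO, with all 12 libraries, with each library left out of the edgeR fit, with both libraries that stood apart left out, and with other tools. The count ranged from 13 without 12-month control 2 to 421 without 3-month control 2 and 12-month KO 1.

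Abca1 (Entrez 11303, chromosome 4 from 53030789 to 53159988, GRCm38), the targeted gene, had 32.7, 27.7 and 31.9 CPM in the 3 control libraries and 27.4, 39 and 42.5 CPM in KO libraries 1, 2 and 3. KO library 1 lay below all controls and the other KO libraries above them, so the groups overlapped. The log2 fold change was 0.24 ± 0.14 (SE), with adjusted p = 0.65 (edgeR). By exact permutation of the libraries (two-sided) p was 0.4, where 3 against 3 libraries cannot go below 0.1. Without KO library 1 the log2 fold change was 0.41 (adjusted p = 0.24, edgeR), and without both libraries it was 0.41 and called higher (adjusted p = 0.015, edgeR). Exon counts of a whole retina mix glia with all other cells and may keep exons outside a deleted part, so no direction here checks the deletion.

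The called genes that lie in the reactive glia list were both higher in KO retina. Edn2 (Entrez 13615, chromosome 4 from 120161206 to 120167360), an endothelin ligand that stressed photoreceptors release and glial endothelin receptors bind, had 3.81, 3.53 and 3.58 CPM in control and 15.8, 10.1 and 9.98 CPM in KO retina. The groups did not overlap, and KO library 1 was the highest. The log2 fold change was 1.72 ± 0.18 (SE, adjusted p = 6.431e-05, edgeR) and 1.47 without KO library 1 (adjusted p = 0.00027, edgeR). Serpina3n, a secreted protease inhibitor of reactive astrocytes, had 4.67, 5.08 and 7.66 CPM in control and 13.1, 8.88 and 10.5 CPM in KO retina. Its call (0.90 ± 0.18, SE, adjusted p = 0.046, edgeR) was lost without KO library 1 (0.74, adjusted p = 0.17, edgeR), the library with the highest value.

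Of 23 reactive glia genes tested, 2 were called higher and 0 lower with all libraries, against 0.127% and 0.085% of all genes. The median of the 23 log2 fold changes was 0.21, against -0.002 over all genes. DESeq2 and voom each called 4 higher, against 0.334% and 0.449% of all genes, and the fit without both libraries called 4, against 1.06%. The 2 that the latter adds are Lif, a cytokine that Müller glia make after photoreceptor stress, with 0.768, 0.706 and 1.11 CPM in control and 1.88, 2.62 and 2.0 CPM in KO retina, and A2m, a broad protease inhibitor. A2m had 8.51, 10.7 and 9.18 CPM in control and 14.9, 13.1 and 14.4 CPM in KO retina, without overlap. Gfap, another member of the list, had 11.6, 12.7 and 12.6 CPM in control and 15.9, 14.7 and 15.0 CPM in KO retina. It was not called with all libraries (adjusted p = 0.5, edgeR) or without both (adjusted p = 0.2, edgeR). At 3 months the median of the list was -0.12. The other endothelin system genes were not called. The receptor gene Ednrb stood at 5.43 to 5.85 CPM in control and 7.2 to 8.31 CPM in KO retina (adjusted p = 0.41, edgeR), and the ligand gene Edn1 overlapped between groups, at 2.06 to 3.61 and 2.38 to 3.09 CPM.

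Other rises fell into several roles. Hmgb2, a chromatin protein of the high mobility group, had 46.2, 35.6 and 45.2 CPM in control and 75.5, 72.4 and 80.3 CPM in KO retina, a log2 fold change of 0.85 ± 0.10 (SE, adjusted p = 0.00034, edgeR) that was the same without KO library 1. Arrdc3, an alpha-arrestin that takes part in receptor sorting, had 44.3, 41.6 and 45.5 CPM in control and 81.6, 70.8 and 85.0 CPM in KO retina. Its log2 fold change of 0.85 with all libraries was 0.83 without KO library 1, where the call was lost (adjusted p = 0.14, edgeR), and 0.83 without both libraries, where it was called (adjusted p = 1.089e-07, edgeR). Gsto1, a glutathione transferase, went from 9.98, 8.81 and 11 CPM to 18.9, 16.8 and 15.1 CPM (0.77 ± 0.12, SE, adjusted p = 0.0057, edgeR).

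Itih2, a heavy chain that binds hyaluronan in the matrix, had 0.668, 0.336 and 0.371 CPM in control and 5.48, 2.93 and 2.34 CPM in KO retina. Actb, the gene of a cytoskeletal actin often used to scale measurements, rose from 349, 329 and 373 CPM to 478, 462 and 467 CPM (0.42 ± 0.07, SE, adjusted p = 0.013, edgeR). Zfp36, whose protein speeds the decay of AU-rich mRNAs, rose from 8.88, 12.2 and 9.45 CPM to 15.5, 15.5 and 16.6 CPM. Odc1, the first enzyme of polyamine synthesis, stood at 77.8 to 101 CPM in control and 112 to 125 CPM in KO retina. Both Odc1 (adjusted p = 0.04, edgeR) and the RIKEN gene 1700028K03Rik (4.14 to 4.86 against 7.13 to 9.78 CPM, adjusted p = 0.04, edgeR) lost their calls without KO library 1. G530011O06Rik, a long noncoding RNA gene of the X chromosome, had 1.2, 1.45 and 1.45 CPM in control and 4.76, 3.26 and 4.14 CPM in KO retina.

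Among the falls, Ddit4 (Entrez 74747, chromosome 10 from 59949675 to 59951770), an inhibitor of the growth kinase mTORC1 that hypoxia, energy stress and glucocorticoids induce, had the smallest p. It had 501, 488 and 400 CPM in control and 275, 275 and 287 CPM in KO retina, a log2 fold change of -0.73 ± 0.10 (SE, adjusted p = 0.00063, edgeR). The 3 KO libraries differed by less than the controls did among themselves. In the list of glucocorticoid targets it was the 1 gene of 20 called with all libraries. Without both libraries 3 of these 20 were called higher (Mt1, Mt2 and Cdkn1a) and 2 lower (Ddit4 and Dusp1), so the list did not move one way. In that fit 1.06% of all genes were called higher and 1.47% lower. The metallothionein gene Mt2 had 7.78, 8.95 and 13.2 CPM in control and 17.6, 17.4 and 18.1 CPM in KO retina.

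Of 20 genes that ERK signalling induces or that feed back on it, 3 were called lower and 0 higher, with a list median of -0.07. The shares of all genes were 0.085% lower and 0.127% higher. Spry2, an inhibitor of growth factor receptor signalling, went from 65.7, 77.8 and 66.0 CPM to 52.3, 49.8 and 47.1 CPM (-0.49 ± 0.08, SE, adjusted p = 0.0057, edgeR). Erf, an ETS-family repressor, went from 45.0, 49.0 and 49.0 CPM to 34.3, 33.8 and 34.3 CPM (adjusted p = 0.0085, edgeR). Ier3, an early response gene, went from 74.8, 66.4 and 64.2 CPM to 56.1, 48.4 and 44.6 CPM (adjusted p = 0.021, edgeR). All 3 were also called without KO library 1. Without both libraries these 3 were called lower and Dusp4, a phosphatase of ERK, higher (0.26, adjusted p = 0.037, edgeR). In that fit 1.47% of all genes were called lower and 1.06% higher. Other classical ERK targets were not called in any of these fits: Dusp6 had 16.8 to 23.3 CPM in control and 25.0 to 26.1 CPM in KO retina, and Etv5 had 29.7 to 34.8 and 28.7 to 31.8 CPM.

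**Figure D3:**
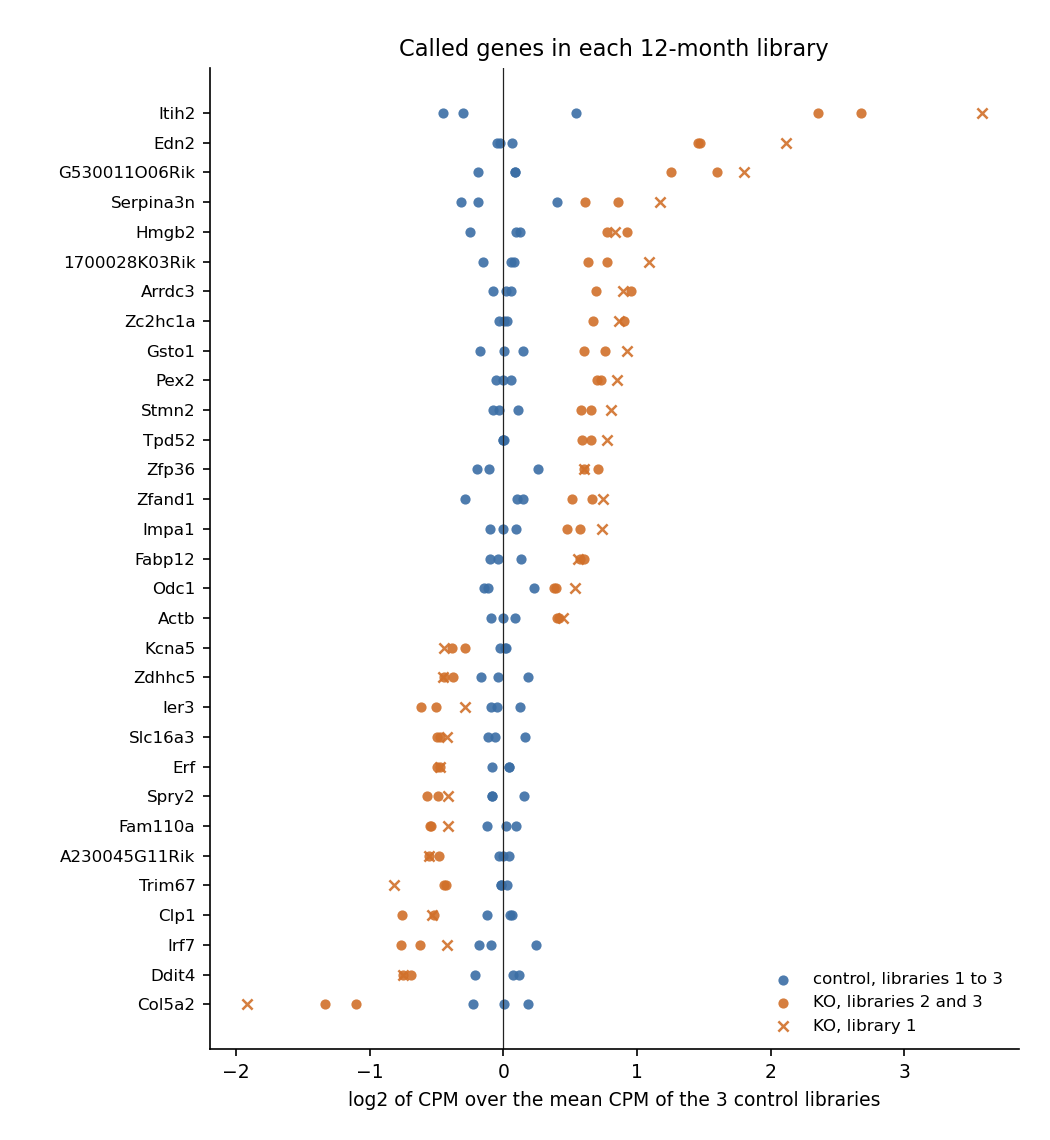
Each row is a named gene called at 12 months, apart from Xist and Muc4, and each point is 1 library's CPM over the mean CPM of the 3 control libraries, on the log2 scale. No KO point overlaps a control point in these rows, and the cross of KO library 1 is the farthest from 0 for Itih2, Edn2, Serpina3n, Col5a2 and Trim67. The rows were picked for passing the test, so the lack of overlap largely follows from that choice.

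Trim67, a ubiquitin ligase of neurons, had 121, 121 and 125 CPM in control and 69.3, 90.0 and 90.7 CPM in KO retina (-0.55 ± 0.08, SE, adjusted p = 0.0038, edgeR). Irf7, the transcription factor that amplifies type I interferon, had 207, 261 and 194 CPM in control and 165, 143 and 130 CPM in KO retina (-0.60 ± 0.10, SE, adjusted p = 0.01, edgeR). It was the 1 called gene of 30 interferon-stimulated genes, whose median was -0.02, with all libraries, with DESeq2, with voom and without both libraries. In these fits 0.085%, 0.437%, 0.68% and 1.47% of all genes were called lower. Col5a2, a chain of a fibrillar collagen, was the 1 called gene of 28 collagen genes, with 4.27, 3.77 and 3.21 CPM in control and 0.991, 1.75 and 1.49 CPM in KO retina. Kcna5, a voltage-gated potassium channel gene, went from 156, 155 and 151 CPM to 113, 126 and 118 CPM. Calls of Col5a2 (adjusted p = 0.12, edgeR) and Kcna5 (adjusted p = 0.054, edgeR) were lost without KO library 1. Other falls were those of Fam110a (53.2 to 61.8 against 39.6 to 43.6 CPM), of the RNA kinase gene Clp1 (17.1 to 19.5 against 11 to 13 CPM), of the palmitoyltransferase gene Zdhhc5 (411 to 525 against 337 to 356 CPM) and of A230045G11Rik (38 to 40 against 26.5 to 27.9 CPM).

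Genes of glucose breakdown were lower in KO retina in most fits, and the number that passed depended on the fit. Of 23 glycolysis and lactate transport genes, 20 had a log2 fold change below 0 with all libraries, the median was -0.16, and 1 was called lower and 0 higher. Lower calls numbered 3 without KO library 1, 4 with DESeq2, 6 without 3-month control 2, 10 with voom and 16 without both libraries, and no member was called higher in any of these. Of all genes, 0.085% were called lower with all libraries, 0.144% without KO library 1 and 0.437% with DESeq2. The share was 0.509% without 3-month control 2, 0.68% with voom and 1.47% without both libraries. The summed level of the list was 27900, 29100 and 28400 CPM in control and 26100, 25000 and 23600 CPM in KO libraries 1, 2 and 3. All KO sums lay below all control sums, and that of library 1 was the nearest to control. The fit without both libraries leaves library 1 out and was added after the data had been seen. Its count of 16 follows in part from that choice. The list's median was between -0.19 and -0.12 with any one 12-month library left out, and -0.11 at 3 months.

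The member called with all libraries was Slc16a3 (Entrez 80879, chromosome 11 from 120948484 to 120959000), the monocarboxylate transporter that exports lactate from strongly glycolytic cells. It had 199, 241 and 206 CPM in control and 161, 155 and 153 CPM in KO retina (-0.46 ± 0.08, SE, adjusted p = 0.0085, edgeR). Ldha (Entrez 16828, chromosome 7 from 46842274 to 46855627), the lactate dehydrogenase subunit that favours lactate formation, had 1440, 1600 and 1380 CPM in control and 1330, 1150 and 1080 CPM in KO retina. Its log2 fold change was -0.31 (adjusted p = 0.14, edgeR) with all libraries and -0.40 (adjusted p = 0.012, edgeR) without KO library 1. Pgk1, phosphoglycerate kinase, had 893, 969 and 937 CPM in control and 895, 759 and 731 CPM in KO retina. KO library 1 lay among the controls, and without it the log2 fold change was -0.32 (adjusted p = 0.012, edgeR). Hk2, the hexokinase of photoreceptors, had 920, 1090 and 1100 CPM in control and 762, 827 and 861 CPM in KO retina, and lay just outside the threshold with all libraries (adjusted p = 0.062, edgeR).

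The other members called without both libraries lay along the whole pathway. Pfkl, a phosphofructokinase chain, had 1150, 1260 and 1170 CPM in control and 974, 961 and 933 CPM in KO retina, and Tpi1, triosephosphate isomerase, had 1450, 1510 and 1400 CPM in control and 1330, 1220 and 1090 CPM in KO retina. Without both libraries their log2 fold changes were -0.33 each (adjusted p = 1.509e-05 for Pfkl and 3.661e-05 for Tpi1, edgeR). Aldoa, Pgam1, Eno1, Eno2, Pkm, Gpi1, Pfkp, Aldoc, Gapdh and the glucose transporter Slc2a1 were called with log2 fold changes from -0.27 for Aldoa to -0.17 for Pfkp and Aldoc. Gapdh stood at 203 CPM in KO library 1, above the controls at 161, 169 and 181 CPM, and at 141 and 151 CPM in the other KO libraries. Several of these enzymes have processed pseudogenes that can share reads, and the handling of such reads is not given in the sources used here. The monocarboxylate transporters Slc16a1 and Slc16a7, a second glucose transporter, Slc2a3, and Ldhb were not called.

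**Figure D4:**
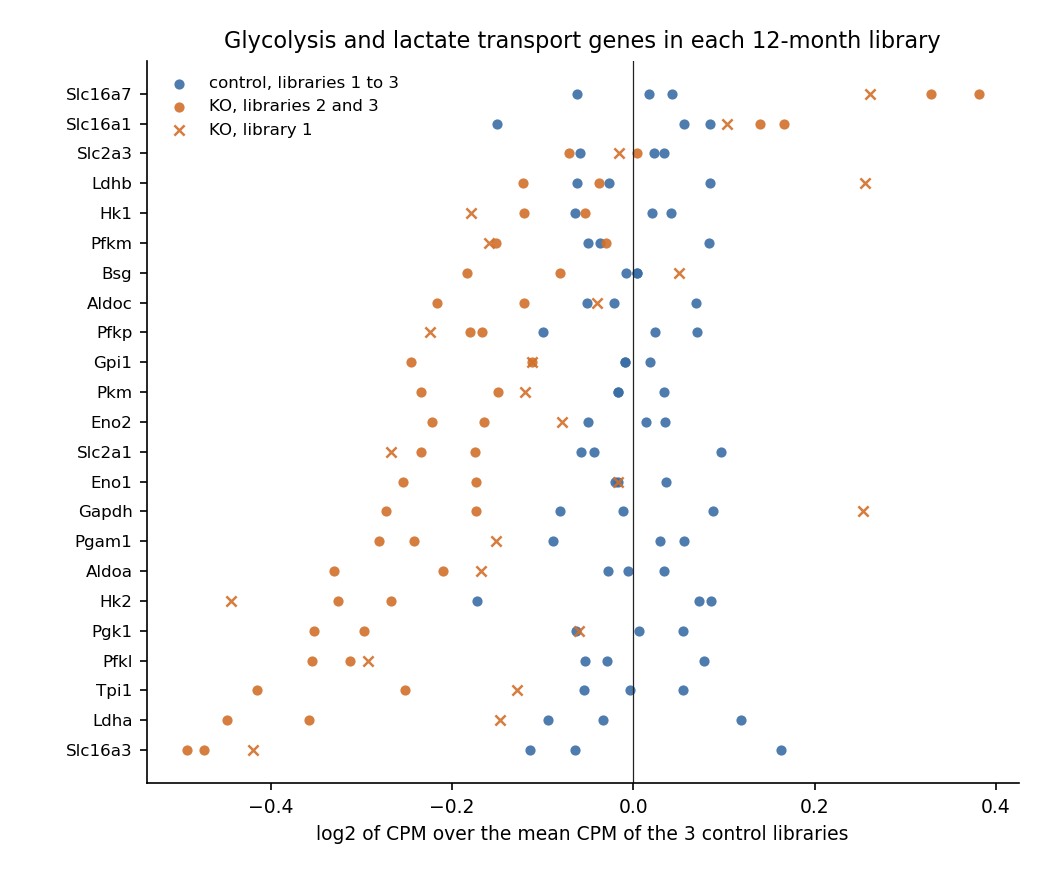
Rows are the 23 glycolysis and lactate transport genes ordered by their log2 fold change without both libraries, and points are each library's CPM over the mean of the 3 control libraries on the log2 scale. KO libraries 2 and 3 lie left of 0 for nearly all rows, while KO library 1 lies among or near the controls for Pgk1, Eno1, Bsg and Aldoc and to their right for Gapdh and Ldhb.

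Short genes as a class behaved in a like direction in KO libraries 2 and 3, so the glycolysis values are set beside it. In the shortest quartile of gene span (67 to 10446 bp) the median log2 difference of KO libraries 2 and 3 from control was -0.07, and it was -0.02, 0.03 and 0.03 in the following quartiles. The quartiles held 7, 8, 4 and 3 of the glycolysis genes. Lists of 32 nuclear oxidative phosphorylation genes and 32 ribosomal protein genes had medians of -0.10 and -0.09 without both libraries, with 0 calls in each, against a median of -0.19 and 16 calls for glycolysis. The part of gene span in the glycolysis values was not tested.

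The hypoxia response list, which shares Slc16a3, Ldha, Pgk1, Hk2 and Slc2a1 with the glycolysis list, had a median of -0.17 over 23 genes. In it 2 genes were called lower with all libraries, Ddit4 and Slc16a3, 6 with voom and 8 without both libraries, where the shares of all genes called lower were 0.085%, 0.68% and 1.47%. Egln1, the oxygen sensor that marks HIF-1α for decay and is itself a HIF target, had 205, 231 and 193 CPM in control and 191, 167 and 159 CPM in KO retina (adjusted p = 0.24 with all libraries and 0.0013 without both, edgeR). Egln1 lies within 100000 bp of Trim67, which was called lower with all libraries. Bnip3, a mitophagy receptor, had 136 to 144 CPM in control and 122 to 135 CPM in KO retina. Hif1a itself was called higher without both libraries, with 324, 341 and 345 CPM in control and 396, 359 and 419 CPM in KO retina (adjusted p = 0.027, edgeR). Fam162a, a mitochondrial protein gene that hypoxia induces, was called lower without KO library 1, at 43.9 to 46.4 CPM in control and 40.3, 32.3 and 31.2 CPM in KO retina.

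For genes of this group that were lower, the 250 bases before a transcript start listed by RefSeq are given for Slc16a3, Ldha, Pgk1 and Ddit4, 5′ to 3′ on the gene's strand, on GRCm38.p6. Capitals mark each match to ACGTG, a core of the HIF binding site, or to its reverse complement CACGT, with overlapping matches joined into 1 run (CACGTG holds both). The windows are chr11:120948817-120949066 on the + strand for Slc16a3, chr7:46845554-46845803 on the + strand for Ldha (the more upstream of 2 starts in the table used), chrX:106186850-106187099 on the + strand for Pgk1 and chr10:59951771-59952020 on the - strand for Ddit4. Those of Slc16a3 and Ldha lie inside the gene spans given above, which begin before these windows at 120948484 and 46842274, so they are not upstream of the first base of either gene.
Slc16a3: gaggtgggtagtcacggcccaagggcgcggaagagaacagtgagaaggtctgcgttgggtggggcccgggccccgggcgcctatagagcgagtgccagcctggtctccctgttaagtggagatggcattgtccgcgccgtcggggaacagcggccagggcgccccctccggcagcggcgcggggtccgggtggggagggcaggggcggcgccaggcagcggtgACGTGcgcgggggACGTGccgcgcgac
Ldha: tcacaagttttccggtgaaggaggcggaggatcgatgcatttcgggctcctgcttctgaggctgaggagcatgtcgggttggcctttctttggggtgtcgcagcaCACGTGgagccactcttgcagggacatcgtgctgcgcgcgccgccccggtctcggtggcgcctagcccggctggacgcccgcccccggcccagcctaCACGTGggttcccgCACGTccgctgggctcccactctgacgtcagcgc
Pgk1: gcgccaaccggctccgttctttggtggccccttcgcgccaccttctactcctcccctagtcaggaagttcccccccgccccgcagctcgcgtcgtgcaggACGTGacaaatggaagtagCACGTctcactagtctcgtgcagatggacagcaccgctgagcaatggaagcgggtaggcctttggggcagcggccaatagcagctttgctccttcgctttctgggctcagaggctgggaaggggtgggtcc
Ddit4: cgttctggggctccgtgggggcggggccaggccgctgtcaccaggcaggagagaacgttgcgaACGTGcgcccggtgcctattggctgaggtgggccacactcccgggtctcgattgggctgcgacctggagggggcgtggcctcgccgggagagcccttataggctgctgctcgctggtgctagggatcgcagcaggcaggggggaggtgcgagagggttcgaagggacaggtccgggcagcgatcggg
Slc16a3 held 2 runs, 27 and 14 bases before that start, Ldha 3, Pgk1 2 and Ddit4 1. In all, 16.6% of the 32851 windows of this length held a match. Of tested genes with a window, 24% had a match in at least 1, against 10 of 20 glycolysis genes and 15 of 20 hypoxia response genes. The hypoxia list holds known HIF targets, so its share describes how such genes are chosen. A match is a stretch of letters and says nothing of binding in these samples.

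Immediate early genes did not move as 1 group. Of 24 tested, Zfp36 was called higher and Ier3 lower, and the median was 0.00. Without both libraries 6 were called lower (Ier2, Ier3, Ier5, Dusp1, Junb and Npas4) and 2 higher (Fosl2 and Zfp36), against 1.47% and 1.06% of all genes. DESeq2 called the same numbers with all libraries, 6 lower and 2 higher, against 0.437% and 0.334%. Ier2 had 59.9, 58.0 and 51.3 CPM in control and 45.6, 38.8 and 34.7 CPM in KO retina. Npas4, which neuronal activity induces, had 27.9, 27.8 and 19.7 CPM in control and 15.9, 19.2 and 15.8 CPM in KO retina. Fosl2, an AP-1 subunit, had 8.08, 11 and 10.1 CPM in control and 13.8, 14.8 and 14.1 CPM in KO retina. Genes of the integrated stress response gave 1 lower call of 22 with all libraries (Ddit4), where 0.085% of all genes were called lower. Without both libraries they gave 3 lower calls, against 1.47%, the other 2 being Ppp1r15a and Ddit3. Of 19 clock genes 0 were called with all libraries and 2 lower without both, against 1.47% of all genes. These were Per2 at 51.4 to 56.4 against 38.1 to 43.5 CPM and Nfil3 at 33.0 to 36.5 against 24.7 to 27.6 CPM.

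Genes of sterol handling showed few calls. Of 25 sterol efflux and LXR target genes 0 were called with all libraries, and the median was -0.03. Abcg1, the partner exporter that LXR also induces, had 115 to 127 CPM in control and 118 to 129 CPM in KO retina (log2 fold change 0.04, adjusted p = 0.91, edgeR). Apoe, the main apolipoprotein of retinal glia, had 1060, 1140 and 1170 CPM in control and 1260, 1080 and 1050 CPM in KO retina. Without both libraries Abca1 and the cholesteryl ester hydrolase gene Nceh1 (23.6 to 24.8 against 28.2 to 30.8 CPM) were the members called, both higher. Of 26 sterol synthesis and uptake genes 0 were called with all libraries, with a median of 0.07, and without both Fdps was called lower, with KO library 1 at 63.5 CPM and above the controls. Of 24 genes of fatty acid synthesis and oxidation, Pex2 was called with all libraries, and Elovl4, Cpt1a and Acadm joined it without both, all higher. Without both libraries 1.06% of all genes were called higher and 1.47% lower. Acadm, the dehydrogenase of medium-chain fatty acids, had 56.5, 49.5 and 57.8 CPM in control and 68.8, 67.0 and 72.8 CPM in KO retina.

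Markers of the retina's cell classes gave 1 call with all libraries. In a bulk sample, fewer cells of a type and less RNA per cell cannot be told apart. With all libraries 0 markers were called of 18 for rods, 14 for cones, 20 for bipolar cells, 17 for amacrine cells, 10 for horizontal cells, 21 for Müller glia, 15 for astrocytes, 19 for microglia and macrophages, 17 for endothelial cells and 14 for pericytes and smooth muscle. Medians ran from -0.10 for bipolar cells to 0.19 for microglia, 0.20 for pericytes and smooth muscle and 0.22 for endothelial cells. Of 25 retinal ganglion cell markers Stmn2 alone was called, higher, and it lies in the chromosome 3 group described below. Summed Müller glia markers were 7030 to 7240 CPM in control and 6860 to 7230 CPM in KO retina, and glutamine synthetase, Glul, had 2530, 2630 and 2530 CPM in control and 2390, 2450 and 2430 CPM in KO retina.

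Bipolar cells had the lowest of these medians. Their summed markers were 3560, 3600 and 3640 CPM in control and 3160, 3380 and 3350 CPM in KO retina, without overlap. Such a gap was not particular to bipolar cells. Summed amacrine cell markers were 2640 to 2730 CPM in control and 2570 to 2620 CPM in KO retina. Those of horizontal cells (706 to 735 and 684 to 699 CPM) and astrocytes (1010 to 1060 and 941 to 1000 CPM) did not overlap either. Without both libraries 4 of 20 bipolar cell markers were called lower and 0 higher, against 1.47% and 1.06% of all genes. Among them Grm6, the glutamate receptor of ON bipolar dendrites, had 288 to 341 CPM in control and 257 to 277 CPM in KO retina. Pcp2 and Gng13, both of ON bipolar cells, were also among those called lower without both libraries. In rods without both libraries Nr2e3 and Sag were called higher and Rcvrn lower, so the rod list did not move one way.

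Among markers of tissue next to the retina, 1 surface epithelium gene was called with all libraries, as was Col5a2 (lower) in the fibroblast list, and the lists are given as measured. Of 10 surface epithelium genes tested, 8 had a log2 fold change above 0 and the median was 2.36. Muc4, a membrane mucin of surface epithelia, was the 1 called (adjusted p = 0.0038, edgeR), with 2, 0 and 0 counts in the control libraries and 0.892, 1.45 and 0.849 CPM in KO retina, and no fold is given against so few counts. Krt15 had 0.135 to 0.334 CPM in control and 2.55 to 2.82 CPM in KO retina, and Krt5 had 0.0 to 0.404 and 1.12 to 2.72 CPM, neither of them called with all libraries. In other fits 2 of the 10 were called higher without 3-month control 2 and 2 without both libraries, against 0.485% and 1.06% of all genes. DESeq2 called 3 higher and voom 2, against 0.334% and 0.449%, and no fit named here called a member lower. Krt12, a keratin of corneal epithelium, overlapped between the groups at 1.32 to 1.9 and 1.26 to 1.88 CPM. The list summed to 3.34 to 4.41 CPM in control and 9.95 to 15.0 CPM in KO retina. Melanocyte markers summed to 23.8 to 41.7 CPM in control and 41.2 to 48.7 CPM in KO retina, which overlap, with a median of 0.54 over 10 genes and 0 called with all libraries. Without both, Dct, Mlana and Gpnmb were called higher. The part of such tissue in the other calls was not tested. Summed pigment epithelium markers (690 to 822 CPM in control and 663 to 733 CPM in KO retina) and skeletal muscle markers (55.3 to 63.7 and 57.5 to 61.6 CPM) overlapped between the groups.

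The gene with the smallest p of all was Xist (Entrez 213742, X chromosome from 103460373 to 103483233), the RNA that silences an X chromosome in female cells. It had 0.167, 0.168 and 0.203 CPM in control, from 5 to 6 counts, and 52.3, 70.7 and 85.5 CPM in KO retina. In the 6 libraries of 3 months it lay between 0.0686 and 0.609 CPM. Y-linked genes were present in all 6 libraries of 12 months. Ddx3y had 30.6, 38.2 and 33.1 CPM in control and 42.1, 33.7 and 45.4 CPM in KO retina, and Eif2s3y had 62.6, 60.8 and 57.9 CPM and 71.4, 59.2 and 66.3 CPM. Of 7 genes that escape X inactivation 0 were called, and Kdm6a stood at 30.2 to 31.3 CPM in control and 31.7 to 34.5 CPM in KO retina. The KO libraries thus held Xist beside Y-linked RNA at levels that overlapped those of the controls. Whether libraries hold more than 1 animal is not in the labels, and the source of Xist was not tested.

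Genes near the first end of chromosome 3 stood higher in KO retina as a block of neighbours. Between positions 5218218 and 19510623, 37 genes were tested, 32 had a log2 fold change above 0, and the median was 0.42. Of the 37, 7 were called, all of them higher, against 0.127% of all genes called higher. Without both libraries 16 were called, against 2.53% of all genes. The 7 called were Pex2, a ubiquitin ligase of the peroxisome membrane, Tpd52, Fabp12, a fatty acid binding protein, Stmn2, a microtubule regulator of neurons, Impa1, an inositol phosphatase, Zc2hc1a and Zfand1, and the last of them ended at 10351334. Pex2 had 43.7, 42.1 and 40.5 CPM in control and 75.8, 68.5 and 69.7 CPM in KO retina (0.76 ± 0.08, SE, adjusted p = 3.949e-05, edgeR), and Tpd52 had 207, 207 and 208 CPM and 355, 312 and 327 CPM. At 3 months, where 37 of 16475 genes were called (0.225%), 11 higher (0.0668%) and 26 lower (0.158%), 5 of the 7 were among them, with log2 fold changes such as 0.66 for Pex2 and 0.69 for Tpd52. Zc2hc1a (adjusted p = 0.068, edgeR) and Zfand1 (adjusted p = 0.079, edgeR) were not called there. Over the 27 tested genes listed for the region, a list chosen with earlier results of these data known, the median was 0.58 at 12 months and 0.56 at 3 months.

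KO library 1 stood apart mostly through genes that were low in it. The genes farthest below all other libraries were Slc17a4, Dgkh, Sdk2, Cbl, Tmem178b, Igsf9b, Hipk2, Atp8a2, Ppp1r12b and Fam135b. Sdk2, an adhesion molecule of retinal synapses, had 12.1 CPM there and 30.3 to 36.3 CPM in the other libraries. Atp8a2, the phospholipid flippase of photoreceptors, had 21.2 CPM there and 45.2 to 60.3 CPM elsewhere, and Cbl, a ubiquitin ligase, had 8.03 CPM and 19.5 to 23.7 CPM. The farthest above were Ranbp9, at 96.9 CPM against 45.5 to 58.7 CPM, then Cebpd, Edn2, Taf13, Prorsd1, mitochondrial COX2, Arpc5, Pde3b, Hs3st4 and Klf2. Messenger RNAs of the mitochondrial genome summed to 23300 CPM in KO library 1, to 17600 and 18500 CPM in the other KO libraries and to 14700 to 16600 CPM in control.

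The differences of KO library 1 ran with gene span, the length from first to last base of a gene. Its median log2 difference from KO libraries 2 and 3 was 0.13 in the shortest quartile, 0.04 and -0.03 in the next, and -0.14 in the longest (from 61096 bp). The same quartiles gave -0.03, -0.01, 0.02 and -0.01 for KO against control with all libraries, where the opposite slopes of library 1 and of libraries 2 and 3 are averaged. Neither RNA integrity nor library yield is given per library in the labels, and the part of either was not tested.

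**Figure D5:**
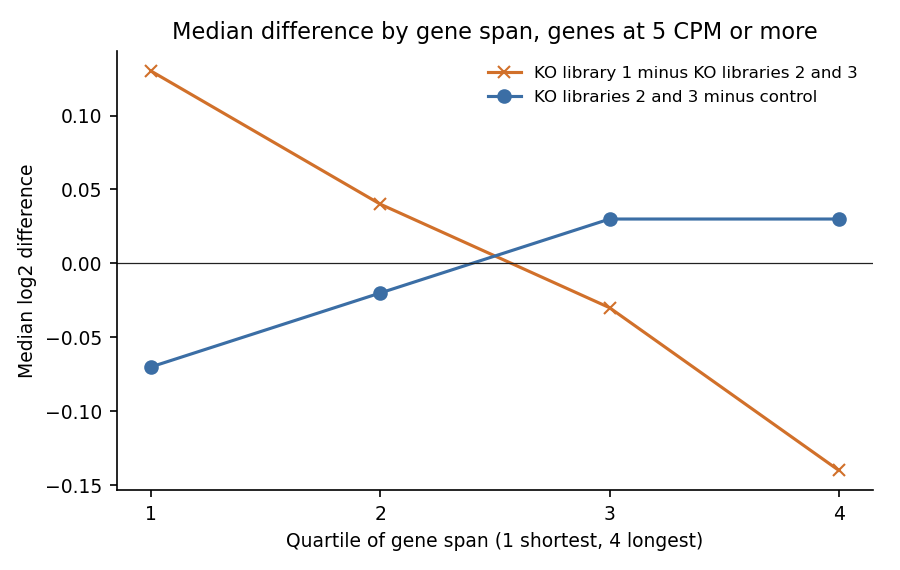
Lines give the median log2 difference over genes with a mean of at least 5 CPM in each quartile of gene span, for KO library 1 against KO libraries 2 and 3 and for KO libraries 2 and 3 against control. The first line falls from 0.13 to -0.14 and the second rises from -0.07 to 0.03.

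In the 10 named genes called only without KO library 1, that library lay nearer to the controls than the other KO libraries did. This follows largely from the choice, since the genes were picked for passing only once that library was left out. Rtn4rl2, a receptor of the Nogo receptor family, had 140, 123 and 126 CPM in control and 113, 82.0 and 74.0 CPM in KO retina, and its log2 fold change moved from -0.54 (adjusted p = 0.14, edgeR) to -0.74 (adjusted p = 0.0014, edgeR). Med13l, a subunit of the Mediator kinase module, had 118, 123 and 126 CPM in control and 114, 161 and 167 CPM in KO retina, and moved from 0.27 to 0.42. Pcare, an actin regulator of photoreceptor outer segments, had 318, 351 and 390 CPM in control and 369, 485 and 455 CPM in KO retina. Cdk2ap2 was lower without KO library 1, and Ankrd33b, Pag1 and Zfp704 were higher, the last 2 of them at the start of chromosome 3. The 5 named genes just outside the threshold with all libraries were Hcls1 (adjusted p = 0.052, edgeR), Klhl21 (0.054), Wscd2 (0.054), Per2 (0.055) and Hk2 (0.062), and all 5 were called without both libraries.

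Whether the KO effect differed between 12 and 3 months was tested as the difference of the log2 fold changes. It was called for 21 of 16475 genes (0.127%), 18 with a higher value at 12 months (0.109%) and 3 with a lower (0.0182%). Of the genes called at 12 months, the difference passed for Xist, Edn2, Muc4, Trim67, A230045G11Rik and Serpina3n. For Edn2 the log2 fold change was -0.18 at 3 months and 1.72 at 12 months (difference 1.90, adjusted p = 0.0013, edgeR). For Trim67 it was 0.10 and -0.55 (difference -0.65, adjusted p = 0.022, edgeR). For Ddit4 the values of -0.24 and -0.73 did not pass as a difference (adjusted p = 0.46, edgeR), and the chromosome 3 genes gave values near 0, as -0.02 for Tpd52. Muscle genes also passed. Tnnc2 and Acta1 were at 0.267 to 0.404 CPM and at 1.78 to 2.91 CPM in the 12-month libraries, and had log2 fold changes of -5.23 and -2.64 at 3 months.

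In the authors' deposited table for the same comparison, 109 genes had an adjusted p below 0.05, 59 higher and 50 lower. All 35 genes called here were among them, as were 33 of the 44 called without KO library 1 and 93 of the 421 called without both libraries. The authors' deposited table gave Ddit4 a log2 fold change of -0.61 and Slc16a3 one of -0.39, both with adjusted p below the threshold. Of the other glycolysis and lactate transport genes, only Hk2 and Pfkl passed there (adjusted p = 0.019 and 0.0024, the authors' DESeq2). Ldha (0.078), Aldoa (0.098), Tpi1 (0.15) and Pgk1 (0.31) did not pass, nor did Egln1 (0.19). The authors' log2 fold changes were smaller in size for the named called genes, as 3.43 against 8.57 for Xist.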

How the data were processed

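Per the labels' protocols, libraries were stranded and made from poly(A) RNA whose integrity number exceeded 8.0. Per the submitters' processing notes, HISAT2 2.1.0, featureCounts 1.6.4, DESeq2 1.22.1 and GRCm38 were used. The values the authors deposited for each library are raw counts by Entrez ID. The sources used here do not give the strand setting or the handling of multiple alignments, and overlapping, antisense and near-identical genes are uncertain. Even numbers made up 60.7% to 70.2% of counts from 1 to 20, as when both reads of a fragment are counted. The authors deposited a 12-month table without a header, read as a normalized mean signal, log2 fold change, standard error, test score, p-value and adjusted p-value.

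Of 27179 IDs, 25275 were named from RefSeq and 18 from GENCODE. Totals ran from 29027099 to 30438026. Counts were scaled by TMM, filtered with filterByExpr and fitted with edgeR 4.0.16 (robust glmQLFit and glmQLFTest, R 4.3.3, 1 coefficient per group, 12 libraries). CPM are TMM-scaled, and log2 CPM used a prior count of 2. DESeq2 1.42.0, limma-voom 3.58.1, other scalings and filters, halved counts, a replicate block and libraries left out were alternatives, and the fits without 3-month libraries were chosen after seeing the data. On simulated counts for the 12-month comparison (16268 genes) recovery was 50.7% for 67 genes with a 1.5-fold change, 94% for 67 with a 2-fold change and 98.5% for 66 with a 4-fold change, and 12 of 174 calls were false. The real data called fewer genes, and no simulated library stood apart. Same-numbered libraries did not deviate together.

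Genes named are Abca1, all named called genes, the 10 of smallest p called only without KO library 1 or for the difference between ages, the 5 just outside the threshold, the 10 farthest each way in KO library 1, and called or highest members of the lists. Members called by other fits were picked with their values in view. The comparison, the gene lists and these rules were chosen with earlier results of these data known. The values of 1 called member of a marker list are not reported here.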

Additional observations from a re-analysis of the deposited data

Results flagged for a closer look

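The KO effect differed between 12 and 3 months by a test of the difference itself (edgeR, adjusted p below 0.05) for 21 genes, and 13 of them are named, with each value given here as the log2 fold change at 12 months minus that at 3 months. Among genes called at 12 months it was 7.96 for Xist, 1.90 for Edn2, 1.54 for Serpina3n, -0.65 for Trim67 and -0.87 for A230045G11Rik. For Muc4 it was 5.37, a value that depends on the prior count, since 12-month control held 2 counts in all. Tagap1 (-1.39), a gene of immune cells, was called higher at 3 months and was not called at 12 months. The other 6 are muscle genes that were lower in KO at 3 months and not called at 12 months, namely Myh1 (7.86), Tnnc2 (5.38), Acta1 (2.69), Atp2a1 (2.45), Mylpf (2.39) and Des (2.04).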

How the results depend on the processing

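The 35 calls at 12 months moved to 31 with only the 6 libraries of that age, 34 with a filter of 1 CPM, 35 with RLE scaling or halved counts, 36 with upper quartile scaling, 64 without a filter, 66 at an adjusted p below 0.1, 127 with DESeq2, 186 with voom, 108 with DESeq2 without KO library 1, and 421 without that library and 3-month control 2. With 1 library left out the count ran from 13 to 166. It was 15 without KO library 3, 23 without control library 1, 13 without control library 2, 52 without control library 3, 44 without KO library 1 and 166 without 3-month control 2. The replicate numbers did not pair the samples (correlations of same-numbered 12-month libraries of 0.09, -0.01 and 0.05), and a fit with the replicate number as a block called 42 genes. The 21 calls for the difference between ages became 41 with DESeq2, 36 with DESeq2 without KO library 1, 50 with voom and 50 without both libraries. With 1 library left out the latter count ran from 14 (without 3-month KO 3) to 29 (without 3-month control 2), and it was 15 without KO library 3 or control library 2, and 23 with the replicate block. Abca1 was called higher, at 0.41, without both libraries, and in no other setting. Of the 33 named genes called, 11 kept their call under all 23 alternatives, 22 lost it under at least 1, and 0 changed direction; the cause of these shifts was not tested, though a smaller set of libraries tests with fewer degrees of freedom. Control counts of 0 to 2 per library, as for Muc4, Krt4 and Krt13, limit what any fold of such genes can show.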

Other observations

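Some called genes lay near others that moved in the same direction. These were chosen after their values were seen. Outside the start of chromosome 3, 23 named called genes had at least 1 tested neighbour within 100000 bp. For 5 of these 23, a neighbour was called in the same direction without both libraries. The 23 genes had 118 tested neighbours in all, counted anew for each called gene, and 2.53% of all genes were called in that fit. Clp1 and Zdhhc5 are among the 5 as neighbours of each other. On chromosome 2, Clp1 (84723122 to 84727287) and Zdhhc5 (84687920 to 84715164) were both called lower with all libraries. Within 100000 bp of Irf7 on chromosome 7 lies Drd4 (141291974 to 141296464), the D4 dopamine receptor gene of photoreceptors. Cdhr5 and Sct, which lie between Irf7 and Drd4, were not called with all libraries or without both. Drd4 had 1060, 1060 and 908 CPM in control and 881, 729 and 719 CPM in KO retina. It was called lower without both libraries (log2 fold change -0.48, adjusted p = 1.780e-06, edgeR). On chromosome 5 the span of Glmn (107548962 to 107597888) overlaps that of 1700028K03Rik (107534720 to 107551549). Glmn stood at 8.05 to 8.81 CPM in control and 14 to 14.3 CPM in KO retina. On chromosome 8, Ttc13 and Egln1 lie within 100000 bp of Trim67. Both were called lower without both libraries (log2 fold changes -0.27 and -0.37, adjusted p = 0.039 and 0.0013, edgeR). The tested genes between Trim67 and Egln1 were not called in that fit. Whether such pairs share reads, a promoter or a stretch of DNA was not tested.

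A pair of noncoding RNAs at low counts, picked with their values in view, were called higher without both libraries and were not called with all libraries. Rn7sk, the RNA that holds a transcription elongation factor inactive, had 2, 4 and 10 counts in control and 10, 42 and 68 in KO retina (adjusted p = 0.21, edgeR), and Rpph1, the RNA of ribonuclease P, had 6, 6 and 2 counts and 15, 28 and 42 counts (adjusted p = 0.07, edgeR). As CPM the groups overlapped for Rn7sk, with KO library 1 at 0.33 and control library 3 at 0.338, and did not overlap for Rpph1. Of 38 snoRNA genes tested 0 were called with all libraries the median log2 fold change was -0.19, and 12 lay above 0.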
